A study of Homo sapiens with 12 samples.

Results

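Large and small spheroids of AU565 cells were compared over all genes. Members were taken by the condition label: 3 libraries labelled large liquid overlay spheroid and 3 labelled small, 6 of the 12 libraries of the series. AU565 is an established human breast carcinoma line, labelled wild type, in which the receptor gene ERBB2 is amplified. All 12 libraries, among them 3 of monolayer and 3 of capsule cultures, share RPMI medium with fetal bovine serum and 1 treatment text, which names liquid overlay with 5% matrigel, a basement membrane extract, after trastuzumab, also for the monolayer and capsule libraries. RNA was taken after 96 h. Trastuzumab is an antibody against the ERBB2 receptor, and no library without it was used here, so the comparison does not measure its effect. Liquid overlay keeps cells from attaching, so that they gather into spheroids. No label gives spheroid diameters or cell numbers, or says whether libraries of a format came from separate cultures. The p-values therefore reflect the spread among libraries of a format, over all 12, and that spread could be technical. Titles of the large spheroid and monolayer libraries carry the letters UP, and those of the small spheroid and capsule libraries do not. What the letters mark is not given, and it cannot be told apart from spheroid size.

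Oxygen and nutrients reach the inside of a cell mass by diffusion, so supply falls with depth. When oxygen is short, the prolyl hydroxylases that mark HIF factors for destruction slow down, and HIF binds the bases ACGTG or GCGTG near its target genes, which include glucose transporters, collagen hydroxylases and growth factors for vessels. Cells that stop dividing silence mitotic genes through the DREAM complex, which binds the element TTTGAA, often beside CCAAT boxes bound by NF-Y. ERBB2, with its partner ERBB3, signals through the PI3K and ERK pathways in this kind of carcinoma.

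Most genes differed between the sizes. Of 15175 genes tested with edgeR's quasi-likelihood F test, 10064 (66.3%) had a Benjamini-Hochberg adjusted p below 0.05 and are called here. Those higher in large spheroids numbered 4992 (32.9%) and those lower 5072 (33.4%), and 3005 (19.8%) were called with at least a 2-fold difference, 1286 of them higher and 1719 lower. Scaling by library totals in place of TMM shifted the median log2 fold change by 0.112 and raised the higher share of the 2-fold calls from 42.8% to 56.0%. In 11097 genes (73.1%) the libraries of the formats did not overlap. The first principal component of the 6 libraries took 79.4% of the variance and separated the sizes. Over all 12 libraries the first component (46.3%) grouped large spheroids with monolayer (-68.38 to -22.21), whose titles carry UP. It placed small spheroids with capsule (27.66 to 53.77), whose titles do not. What the letters UP mark and spheroid size cannot be told apart here. Totals were 16962684, 19596772 and 17298633 counts in the large spheroid libraries and 15709859, 14277546 and 13971346 in the small ones. Epithelial markers EPCAM, KRT8 and KRT18 were read in every library, and the 8 breast luminal markers summed to 11576 to 12177 CPM (counts scaled to a common total per library) in large spheroids and 18239 to 18724 in small ones. That sum rests mostly on ERBB2 and KRT19, and of the 8 markers 6 fell, EPCAM rose and KRT18 did not pass. In bulk libraries, fewer cells of a type and less RNA per cell cannot be told apart.

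Fold changes followed base composition. GC-poor transcripts were higher and GC-rich transcripts lower in large spheroids, with a Spearman rho of -0.657 over 14637 genes, which are not independent. Among the 10% of genes lowest in GC, 76.3% were called higher (median log2 fold change 0.759), and among the 10% highest in GC 80.5% were called lower (median -0.936). A second fit removed the trend with GC and length within each library, leaving a rho of -0.04. It called 7631 of 14637 genes (52.1%), 3915 higher (26.7%) and 3716 lower (25.4%), with 1553 at least 2-fold (10.6%). Of the genes in both fits, 5425 were called the same way by each, 541 were called in opposite directions, 3875 were called only without the correction and 1665 only with it. Whether the trend arose in the cells or in making the libraries was not tested. Values below are from the fit without the correction, and "corrected" marks those with it.

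**Figure D1:**
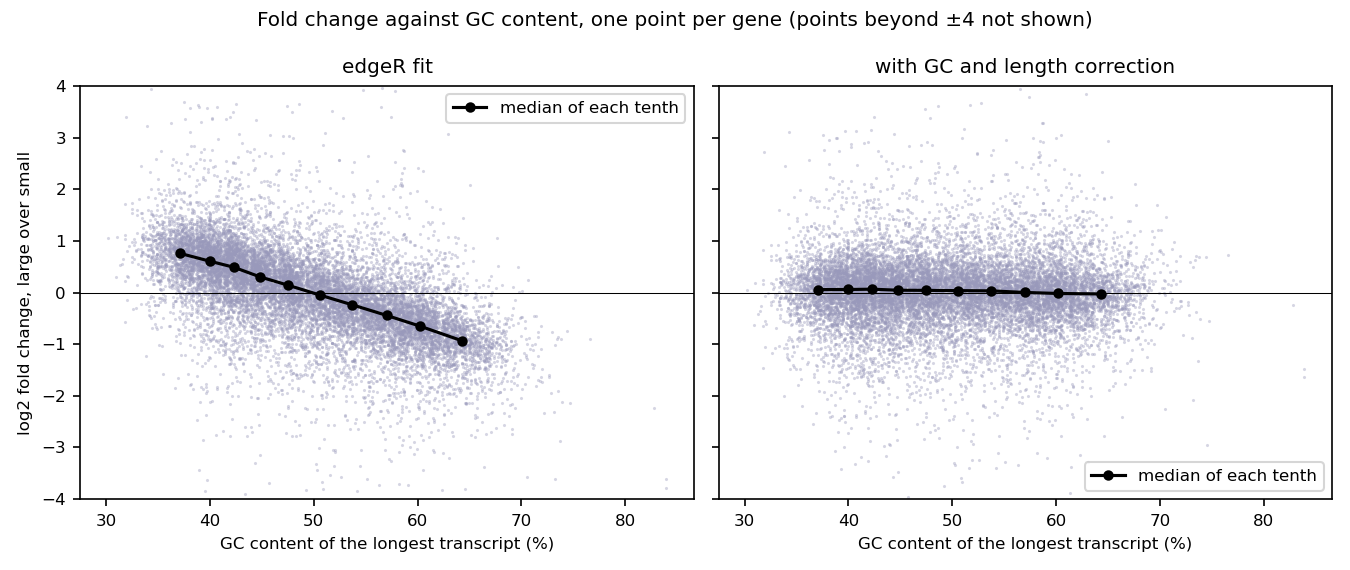
Log2 fold change of large over small spheroids for each gene against the GC content of its longest transcript in percent, without (left) and with (right) the GC and length correction; black points join the medians of 10 equal groups of genes. The medians run from 0.759 at low GC to -0.936 at high GC on the left and lie near 0 on the right.

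Across 35 lists of pathways and complexes, mitotic and DNA replication genes had the lowest medians and hypoxia-induced genes the highest, in both fits for mitosis and hypoxia. The plot of list medians shows for which lists the correction moved the median across 0: keratins, glycolysis, the ERBB group and the BCL2 family are among them. The choice of list members was made with earlier results of these data known, so list counts are descriptions set beside the share of all genes called. For each list below, those shares are 32.9% higher and 33.4% lower, and corrected 26.7% and 25.4%.

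**Figure D2:**
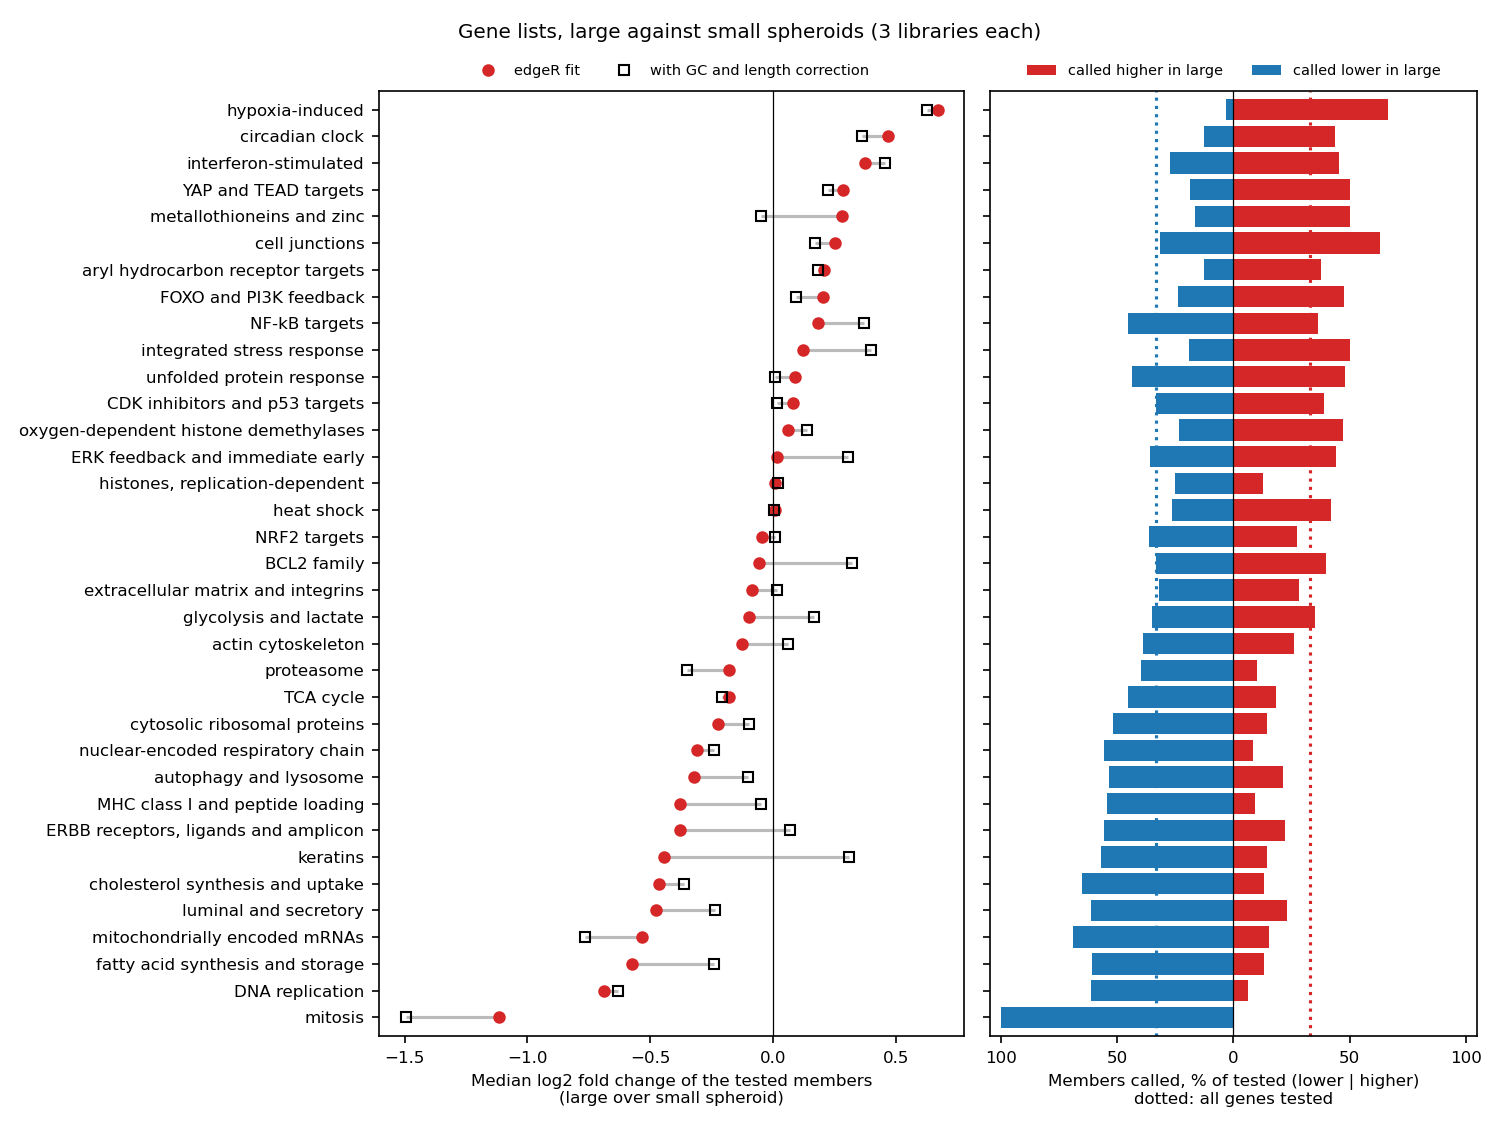
Left, median log2 fold change (large over small spheroid) of the tested members of each of 35 lists without (red circles) and with (open squares) the GC and length correction; right, percent of tested members called higher (red) or lower (blue), with dotted lines for all genes tested. All 28 mitosis genes were called lower, and 20 of 30 hypoxia-induced genes were called higher.

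The promoters of the leading hypoxia and mitosis genes each show at least 1 motif of the pair named above. ERO1A and CDC20 hold both motifs of their pair. KDM3A lacks ACGTG, P4HA1 lacks GCGTG, KIF20A lacks TTTGAA and BUB1B lacks CCAAT. They are the 3 members of each list with the smallest adjusted p whose promoter was in the table, and each runs from 250 bases before to 50 after the RefSeq start on GRCh38.p14. Capitals mark ACGTG or GCGTG on either strand (CACGT and CACGC when read on the printed strand) in ERO1A (chr14:52695509-52695808, minus strand), KDM3A (chr2:86441121-86441420, plus) and P4HA1 (chr10:73096817-73097116, minus).
ERO1A: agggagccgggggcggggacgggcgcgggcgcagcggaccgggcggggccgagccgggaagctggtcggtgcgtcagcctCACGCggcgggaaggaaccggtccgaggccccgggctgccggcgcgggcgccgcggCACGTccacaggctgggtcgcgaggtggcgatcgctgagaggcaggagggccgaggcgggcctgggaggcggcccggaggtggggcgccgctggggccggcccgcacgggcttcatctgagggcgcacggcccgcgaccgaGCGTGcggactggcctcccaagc
KDM3A: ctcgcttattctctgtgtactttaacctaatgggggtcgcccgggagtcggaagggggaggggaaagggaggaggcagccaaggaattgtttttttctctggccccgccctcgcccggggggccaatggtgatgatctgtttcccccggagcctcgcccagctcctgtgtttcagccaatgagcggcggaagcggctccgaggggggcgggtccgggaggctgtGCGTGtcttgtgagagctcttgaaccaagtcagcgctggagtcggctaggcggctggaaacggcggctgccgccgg
P4HA1: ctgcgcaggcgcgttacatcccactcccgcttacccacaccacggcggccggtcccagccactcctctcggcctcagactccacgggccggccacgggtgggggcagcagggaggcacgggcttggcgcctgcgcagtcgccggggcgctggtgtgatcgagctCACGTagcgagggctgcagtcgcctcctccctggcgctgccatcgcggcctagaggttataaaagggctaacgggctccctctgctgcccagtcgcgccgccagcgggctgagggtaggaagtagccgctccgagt
In KIF20A (chr5:138178862-138179161, plus), CDC20 (chr1:43358731-43359030, plus) and BUB1B (chr15:40160819-40161118, plus), capitals mark TTTGAA or CCAAT on either strand (TTCAAA and ATTGG when read on the printed strand).
KIF20A: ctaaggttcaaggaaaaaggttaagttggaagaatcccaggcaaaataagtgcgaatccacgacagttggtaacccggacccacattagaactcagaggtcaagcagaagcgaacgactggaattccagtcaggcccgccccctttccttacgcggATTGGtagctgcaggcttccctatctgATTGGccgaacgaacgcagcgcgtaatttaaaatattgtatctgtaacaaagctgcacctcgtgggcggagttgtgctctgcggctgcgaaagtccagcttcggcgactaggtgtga
CDC20: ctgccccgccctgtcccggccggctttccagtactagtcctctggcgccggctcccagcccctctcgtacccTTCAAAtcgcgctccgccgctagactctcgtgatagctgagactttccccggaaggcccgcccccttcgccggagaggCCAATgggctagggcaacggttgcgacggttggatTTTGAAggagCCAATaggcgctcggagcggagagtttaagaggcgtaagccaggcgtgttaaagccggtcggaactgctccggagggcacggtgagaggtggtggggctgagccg
BUB1B: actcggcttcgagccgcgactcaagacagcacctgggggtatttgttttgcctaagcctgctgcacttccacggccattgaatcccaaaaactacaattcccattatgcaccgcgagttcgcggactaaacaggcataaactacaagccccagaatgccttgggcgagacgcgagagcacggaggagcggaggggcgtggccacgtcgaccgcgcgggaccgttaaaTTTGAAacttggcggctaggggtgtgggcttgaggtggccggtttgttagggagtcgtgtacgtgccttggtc
ACGTG stood in 15 of the 25 hypoxia-induced genes with a promoter in the table (60.0%), against 26.4% of the 11671 promoters of tested genes. GCGTG stood in 14 of the 25 (56.0%), against 50.2%. TTTGAA stood in 18 of 24 mitosis promoters (75.0%), against 9.9%, and CCAAT in 20 of 24 (83.3%), against 36.6%. Over all 27305 promoters of the table the shares were 21.6%, 36.3%, 15.4% and 35.7%. Matches of the motifs of a pair can share bases, on 1 strand or across strands. A match is a description of these letters and not of binding.

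Hypoxia-induced genes were higher in large spheroids. Of the 30 listed, all of which passed the filter on low counts, 20 rose, 1 fell and 9 did not pass the test, with a median log2 fold change of 0.67 against -0.005 over all genes. With the correction 23 rose and 1 fell (median 0.63). Over the 4 formats, 25 of the 30 had their highest mean in large spheroids, while 22 had their lowest in monolayer. Here levels are TMM-scaled CPM in libraries 1, 2 and 3 of a format, and means carry the SD over 3 libraries.

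P4HA1 (chromosome 10, 73007217 to 73096866), a catalytic subunit of the enzyme that hydroxylates prolines of collagen, stood at 1271, 1354 and 1308 CPM in large spheroids and at 360.0, 457 and 375 CPM in small ones. The lowest large library lay far above the highest small one, and the gene rose 3.3-fold (log2 fold change 1.72 ± 0.11 SE, adjusted p = 1.91e-09, corrected 2.33-fold). ERO1A (chromosome 14, 52639915 to 52695558), the oxidase that drives disulfide bond formation in the endoplasmic reticulum, stood at 519, 560 and 550 CPM against 157, 165 and 162 CPM. It rose 3.37-fold (log2 fold change 1.75 ± 0.07, adjusted p = 2.39e-11, corrected 2.19-fold), and no library of one format reached the other. For both genes the small spheroid mean, 398 and 161 CPM, was nearer to the capsule mean of 330 and 130 CPM than to that of large spheroids. KDM3A, a histone demethylase that needs oxygen, rose 2.63-fold, from 41.7 ± 1.2 to 109.8 ± 6.4 CPM (corrected 1.92-fold).

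ADM, the secreted vessel-dilating peptide adrenomedullin, stood at 68.8, 81.2 and 74.4 CPM in large spheroids and at 13.7, 22 and 17.5 CPM in small ones. It rose 4.23-fold (log2 fold change 2.08 ± 0.13, adjusted p = 2.21e-09), and 6.32-fold with the correction. SLC2A3, a high-affinity glucose transporter, stood at 16.1, 17.8 and 12.6 CPM against 1.8, 1.67 and 2.14 CPM. All 3 large libraries were above every small one, and SLC2A3 rose 8.27-fold (log2 fold change 3.05 ± 0.23, adjusted p = 1.37e-08, corrected 7.14-fold). Its relative SLC2A1, the widespread glucose transporter, stood at 343, 344 and 370.0 CPM against 334, 350.0 and 347 CPM. Those libraries overlapped and SLC2A1 did not pass (adjusted p = 0.769), though it was called higher after the correction (log2 fold change 0.34, adjusted p = 0.0015).

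Other listed hypoxia genes, chosen by their values, are given next. EGLN3 and EGLN1, oxygen-sensing prolyl hydroxylases that are themselves induced by HIF, rose 1.54-fold and 1.78-fold. Their log2 fold changes were 0.62 and 0.83, and corrected 0.63 and 0.48. EGLN3 stood at 213, 216 and 240 CPM in large spheroids and 130.0, 177 and 128 CPM in small ones, without overlap, and at 10.2 ± 0.80 CPM in monolayer. MXI1, an antagonist of MYC, rose 2.5-fold, and BHLHE40, a repressor also tied to the circadian clock, 2.03-fold. On the log2 scale MXI1 was at 1.32 (corrected 0.98) and BHLHE40 at 1.021 (corrected 1.175). DDIT4, an inhibitor of mTORC1, rose 1.51-fold (corrected 2.25-fold), and BNIP3, a mitophagy receptor, 1.72-fold. BNIP3 had a log2 fold change of 0.78 (corrected 0.91). VEGFA, the main growth factor of blood vessels, stood at 393, 389 and 302 CPM against 268, 257 and 246 CPM. Its libraries did not overlap, and it rose 1.41-fold (log2 fold change 0.49 ± 0.10, adjusted p = 0.000432, corrected 1.66-fold).

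Some standard hypoxia markers did not pass. CA9, a surface carbonic anhydrase, stood at 9.68, 12.9 and 10.8 CPM in large spheroids and 11.9, 18 and 11.2 CPM in small ones, so the formats overlapped (log2 fold change -0.30 ± 0.19, adjusted p = 0.177). With the correction the sign of CA9 turned and it was again not called (log2 fold change 0.40, adjusted p = 0.0644). NDRG1, a stress-responsive protein, ran from 2526 to 2672 CPM against 2155 to 2625 CPM, with overlap (log2 fold change 0.17 ± 0.11, adjusted p = 0.203). It was called higher with the correction (0.33), with library totals (0.28) and in a fit of the 6 spheroid libraries alone (0.19). NOL3, an apoptosis repressor, was the 1 listed gene that fell, 1.43-fold, and its sign turned with the correction (log2 fold change 0.36, adjusted p = 0.000753). PLOD2, a collagen lysyl hydroxylase, rose 1.63-fold, and the corrected value was -0.09 on the log2 scale and not called.

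**Figure D3:**
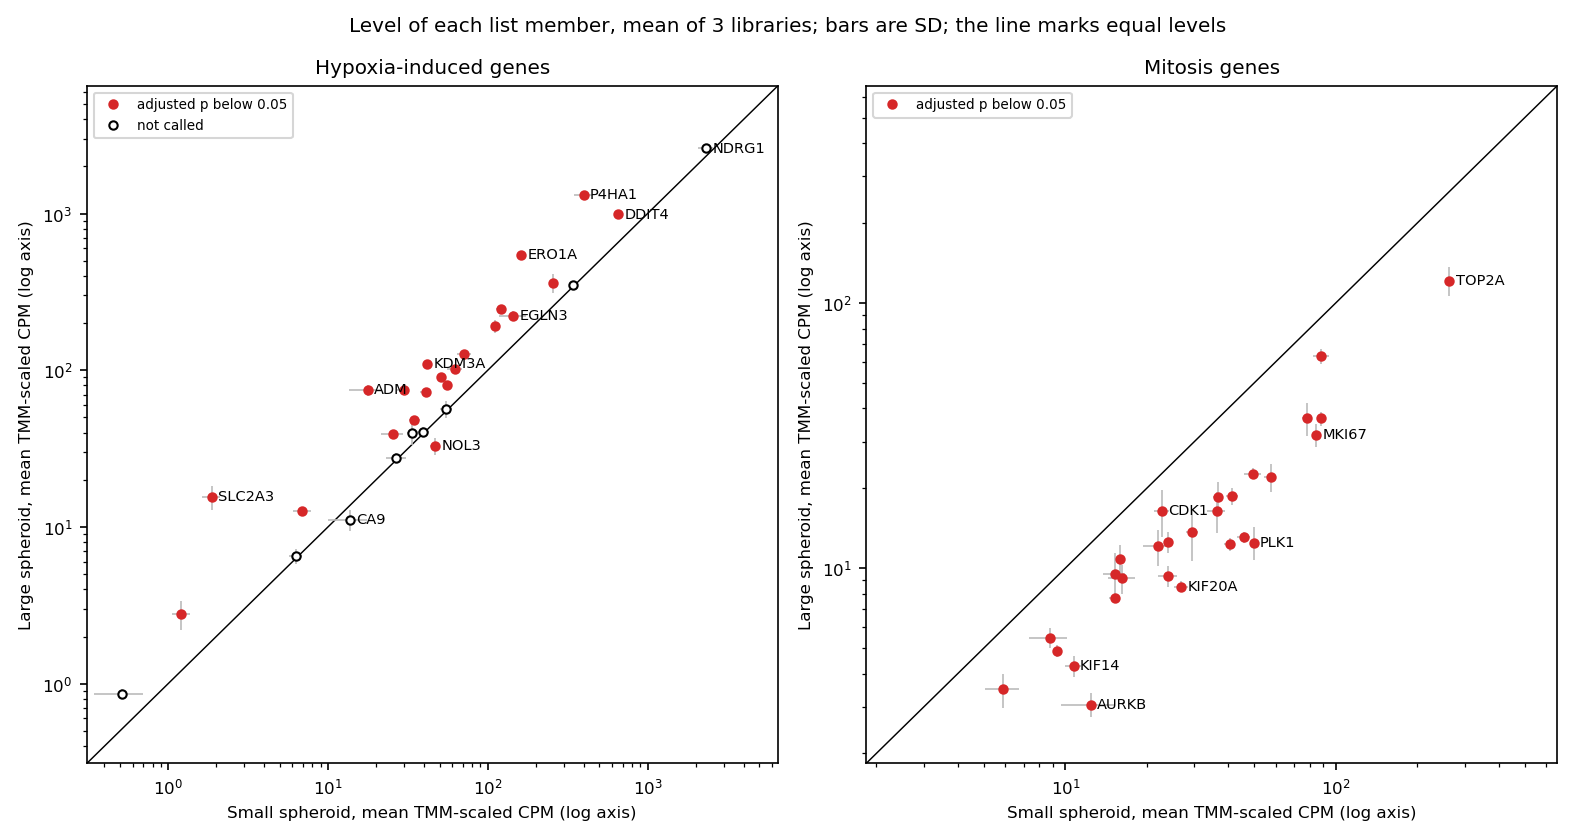
Mean TMM-scaled CPM in large against small spheroids on log axes for each hypoxia-induced (left) and mitosis (right) gene, with SD bars over 3 libraries and a line at equal levels; red points have adjusted p below 0.05. Hypoxia genes such as SLC2A3 and P4HA1 lie above the line with CA9 and NDRG1 near it, and all 28 mitosis genes lie below it.

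Glycolytic genes moved both ways, and genes of the TCA cycle and respiratory chain were called lower more often than higher. Of 20 genes for glycolysis and lactate, 7 rose, 7 fell and 6 did not pass (corrected 9 and 2). Without the correction these counts lie near the shares over all genes, 32.9% called higher and 33.4% lower. PDK1, the kinase that holds pyruvate back from the mitochondrion, rose from 25.1 ± 2.2 to 60.0 ± 2.2 CPM, 2.39-fold (adjusted p = 7.74e-09, corrected 1.56-fold). HK2, the first enzyme of glycolysis in many tumours, stood at 720, 797 and 787 CPM in large spheroids against 468, 466 and 501 CPM and rose 1.61-fold (corrected 1.71-fold). SLC16A3, which exports lactate, fell 1.85-fold, from 603 ± 5.6 to 325 ± 20 CPM. That call was lost with the correction (log2 fold change -0.15, adjusted p = 0.0833). PKM, the last enzyme of glycolysis, fell 1.39-fold (corrected 1.18-fold lower).

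Of 22 genes of the TCA cycle, 4 rose, 10 fell and 8 did not pass (corrected 1 and 12). OGDHL, a relative of the oxoglutarate dehydrogenase subunit OGDH, stood at 3.19, 4.11 and 3.79 CPM in large spheroids and at 31.5, 27.6 and 26.9 CPM in small ones. Large libraries were all far below small ones, and OGDHL fell 7.73-fold (log2 fold change -2.95 ± 0.13, adjusted p = 3.84e-11, corrected 5.44-fold). PC, the pyruvate carboxylase that refills the cycle, fell 2.51-fold (corrected 1.59-fold). Of 36 nuclear-encoded genes of the respiratory chain, 3 rose, 20 fell and 13 did not pass (median -0.31), and with the correction none rose and 22 fell. NDUFA3, a subunit of complex I, fell 4.92-fold, and ATP5MC1, a ring subunit of ATP synthase, fell 1.9-fold from 63.5 ± 2.8 to 33.4 ± 0.8 CPM.

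Transcripts of the mitochondrial genome split by class. Ribosomal RNAs were higher: RNR2, the large one, stood at 23418, 23415 and 21577 CPM in large spheroids and at 7196, 7131 and 8276 CPM in small ones. Without overlap between formats, RNR2 rose 3.03-fold (log2 fold change 1.60 ± 0.11, adjusted p = 3.36e-09), and RNR1, the small one, rose 2.03-fold. Neither had a corrected value. Of the 13 mRNAs, 2 rose, 9 fell and 2 did not pass, with the same numbers after the correction. ATP8, a subunit of ATP synthase, stood at 70.2, 66.4 and 63.6 CPM against 236, 234 and 301 CPM and fell 3.85-fold. ND1, of complex I, fell 2.19-fold, while ND4L, also of complex I, rose 1.56-fold. ATP8 overlaps ATP6 and ND4L overlaps ND4, so the counting could share or drop their reads. The 26 mitochondrially encoded genes together took 7.13%, 7.27% and 6.73% of counts in large spheroids and 5.68%, 5.25% and 6.31% in small ones. That share pools the ribosomal RNAs, which rose, with the mRNAs, of which 9 of 13 fell, so it is no general rise of mitochondrial transcripts. The means of 7.04% ± 0.28 and 5.75% ± 0.54 (SD, n = 3) differed with p = 0.1 in a two-sided exact permutation test, the smallest value that 3 against 3 libraries allow.

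Every listed mitosis gene was lower in large spheroids. All 28 passed the filter and all 28 fell, with log2 fold changes from -2.02 to -0.47 and a median of -1.11, against 33.4% of all genes called lower. After the correction all 28 were again called lower, with a median of -1.50. Each of the 28 had its lowest mean over the 4 formats in large spheroids, and the highest mean was in capsule for 18 and in monolayer for 10. MKI67, the antigen of the Ki-67 proliferation stain, stood at 28.6, 35.0 and 31.8 CPM in large spheroids and at 84.8, 83 and 85.8 CPM in small ones. The ranges lay far apart, and MKI67 fell 2.66-fold (log2 fold change -1.41 ± 0.11, adjusted p = 1.77e-08, corrected 2.89-fold), with 190.5 ± 5.8 CPM in monolayer.

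Genes that act at the spindle and at mitotic exit were among them. PLK1, a kinase of mitotic entry and spindle assembly, stood at 10.4, 13.7 and 13.3 CPM against 47.8, 50.8 and 50.3 CPM and fell 3.97-fold (corrected 2.94-fold). AURKB, the kinase of the chromosomal passenger complex, fell 4.05-fold from 12.4 ± 2.7 to 3.05 ± 0.31 CPM. CDC20 and UBE2C, which activate and feed the anaphase-promoting complex, fell 3.49-fold and 3.3-fold (corrected 2.38-fold and 2.88-fold). KIF20A, a kinesin of cell division, stood at 8.06, 8.57 and 8.85 CPM in large spheroids and 24.9, 27.7 and 27.8 CPM in small ones. All of its large libraries were below all small ones, a 3.15-fold fall (corrected 3.27-fold). CCNB1, a mitotic cyclin, fell 2.59-fold and TOP2A, the topoisomerase that untangles sister chromatids, 2.17-fold (corrected 3.25-fold and 3.32-fold). CDK1, the kinase that drives mitosis, had the smallest fall of the list, 1.38-fold (adjusted p = 0.00696), and was 2.14-fold lower with the correction.

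DNA replication genes were mostly lower. Of 31, 19 fell, 2 rose and 10 did not pass (median -0.69), and with the correction 24 fell and none rose. E2F1, a transcription factor that opens S phase, stood at 9.68, 9.22 and 9.2 CPM in large spheroids and at 42.7, 41.1 and 43.1 CPM in small ones. No libraries overlapped and E2F1 fell 4.51-fold (log2 fold change -2.17 ± 0.11, adjusted p = 1.85e-10, corrected 2.68-fold). TK1, which phosphorylates thymidine for DNA, fell 3.57-fold, from 278 ± 45 to 77.9 ± 5.7 CPM (corrected 1.98-fold). CDC45, of the replicative helicase, fell 3.27-fold, CDT1, which loads that helicase, 4.43-fold and MCM5, of its ring, 2.55-fold. PCNA, the sliding clamp, did not pass at 40.2, 41.7 and 50.3 CPM against 42.7, 41.4 and 42.5 CPM (adjusted p = 0.67). The listed genes that rose were RRM1, of ribonucleotide reductase (1.25-fold), and RFC4, of the clamp loader (1.23-fold). Corrected, RRM1 was at -0.04 on the log2 scale and RFC4 at 0.18, neither called.

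Inhibitors of cyclin-dependent kinases went different ways. Of 18 such inhibitors and p53 targets, 7 rose, 6 fell and 5 did not pass (corrected 6 and 4). CDKN1A (p21), a p53 target, fell 2.21-fold, from 15.1 ± 2.4 to 6.83 ± 0.79 CPM (adjusted p = 6.26e-05, corrected 1.55-fold). CDKN1B (p27), which accumulates in resting cells, stood at 98.4, 103.9 and 109.0 CPM in large spheroids against 66.4, 69.3 and 64.3 CPM. It rose 1.56-fold without overlap (corrected 1.47-fold). CDKN2C (p18) fell 2.76-fold, while MDM2, the p53 ligase, and CCNG1, a p53 target, each rose 2.08-fold (corrected 1.46-fold and 1.36-fold).

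**Figure D4:**
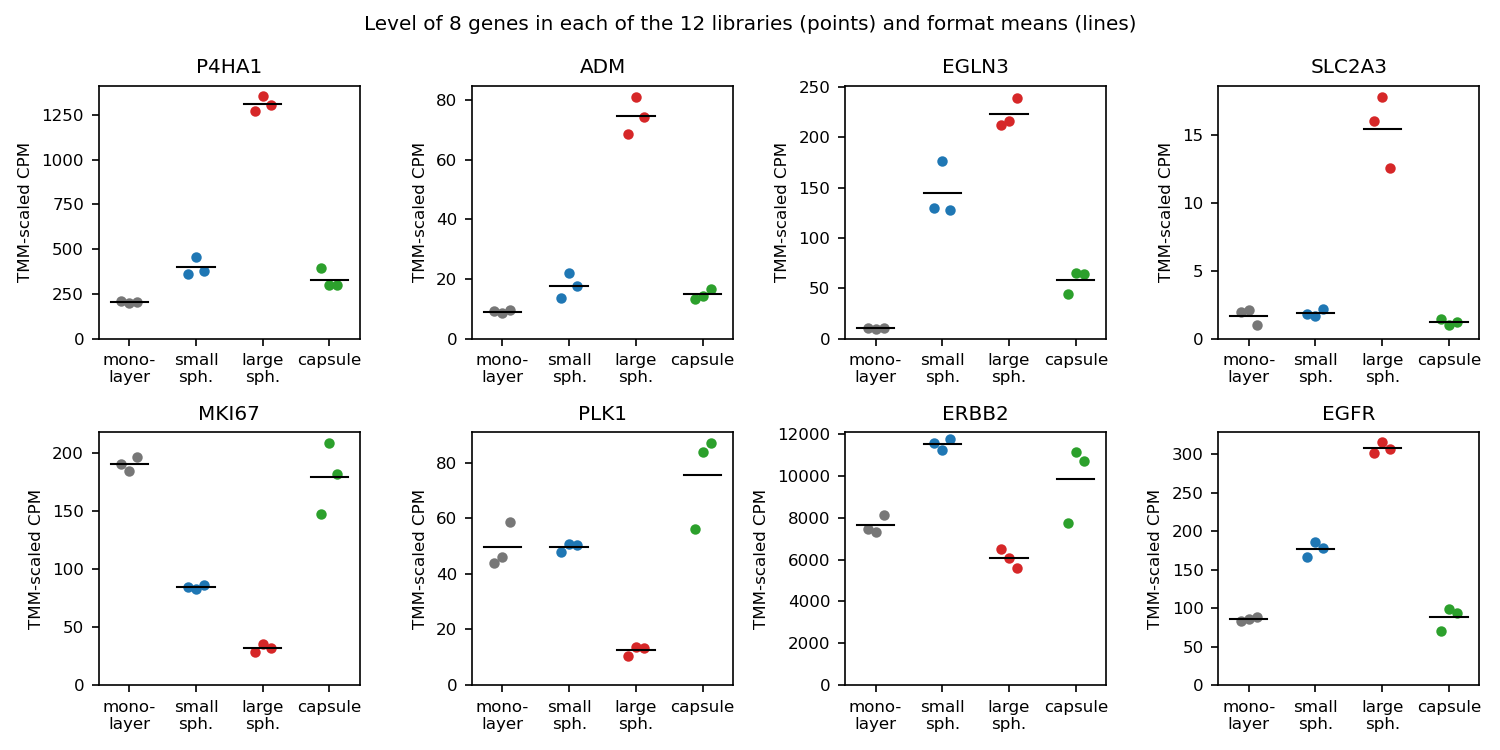
TMM-scaled CPM of 8 genes in each of the 12 libraries (points, coloured by format) with format means (lines), on linear axes from 0. P4HA1, ADM, SLC2A3 and EGFR are highest in large spheroids, and MKI67 and PLK1 are lowest there.

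ERBB2 itself (chromosome 17, 39688094 to 39728658) was lower in large spheroids. It stood at 6533, 6075 and 5587 CPM there and at 11589.8, 11233 and 11779.6 CPM in small spheroids. The groups lay far apart and ERBB2 fell 1.9-fold (log2 fold change -0.93 ± 0.11, adjusted p = 1.41e-06, corrected 1.4-fold, corrected adjusted p = 2.95e-05), with 7653 ± 433 CPM in monolayer and 9873 ± 1854 in capsule. EGFR, its relative, went the other way: 302, 316 and 306 CPM against 166, 186 and 178 CPM, a 1.74-fold rise (adjusted p = 2.24e-06, corrected 1.56-fold). ERBB3, the partner of ERBB2, did not pass at 341 ± 5.8 against 357 ± 17 CPM (adjusted p = 0.474).

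Neighbours of ERBB2 on chromosome 17 did not move as one. Of 18 tested genes for ERBB receptors, ligands and the amplified region, 4 rose, 10 fell and 4 did not pass, and corrected 5 rose and 5 fell. STARD3, which moves cholesterol between membranes, fell 1.64-fold (corrected 1.13-fold). GRB7, an adaptor that binds ERBB2, fell 1.46-fold from 1116 ± 39 to 763 ± 62 CPM and was not called after the correction (log2 fold change 0.07). IKZF3, a lymphoid transcription factor in the same stretch, stood at 6.95, 7.92 and 7.19 CPM in large spheroids against 1.27, 1.59 and 2.14 CPM. It rose 4.43-fold without overlap (corrected 3.7-fold). ERRFI1, a feedback inhibitor of EGFR and ERBB2, rose 1.93-fold (corrected 1.5-fold).

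Immediate early and ERK feedback genes were mixed. Of 25 tested, 11 rose, 9 fell and 5 did not pass, and corrected 14 rose and 6 fell. FOS, an AP-1 factor induced by ERK, stood at 51.3, 49.1 and 39.7 CPM in large spheroids and at 14.4, 17.0 and 15.5 CPM in small ones. It rose 2.99-fold (log2 fold change 1.58 ± 0.14, adjusted p = 6e-08, corrected 3.52-fold), with every large library above every small one. DUSP5, a phosphatase of ERK, rose 2.55-fold, ETV4, an ETS factor downstream of ERK, 1.57-fold and PHLDA1 5.34-fold (corrected 3.32-fold, 2.48-fold and 4.21-fold). NR4A1, an orphan nuclear receptor of the same early wave, fell 3-fold, from 347 ± 9.7 to 115.4 ± 8.4 CPM (corrected 2.03-fold). JUND, another AP-1 factor, fell 2.97-fold (corrected 1.26-fold), and SPRY4, an inhibitor of receptor signalling, 1.36-fold.

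Among 21 genes of FOXO factors and PI3K feedback, 10 rose, 5 fell and 6 did not pass (corrected 9 and 7). PIK3R1, the regulatory subunit of PI3K, stood at 25.9, 30.1 and 31.3 CPM against 13.5, 10.8 and 12.9 CPM. Its formats did not overlap and it rose 2.34-fold (adjusted p = 1.22e-07, corrected 1.58-fold). FOXO3, a transcription factor held out of the nucleus by AKT, rose 1.81-fold, and IRS1, an adaptor of insulin receptors, rose 1.87-fold (corrected 1.75-fold and 1.9-fold). TXNIP, which restrains glucose uptake, fell 1.72-fold, and its large libraries spread from 72.3 to 122 CPM against 164 to 184 CPM in small ones (corrected 2.16-fold).

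Secretory luminal genes were mostly lower in large spheroids. Of 26 tested, 16 fell, 6 rose and 4 did not pass (median -0.48), and corrected 13 fell and 5 rose. SCGB2A2, the secreted mammaglobin A, stood at 951, 899 and 1181 CPM in large spheroids and at 1553, 2263 and 1576 CPM in small ones. It fell 1.78-fold without overlap (log2 fold change -0.83 ± 0.12, adjusted p = 1.85e-05, corrected 2.41-fold), against 40.8 ± 0.7 CPM in monolayer and 1124 ± 46 in capsule. Its partner SCGB1D2 fell 1.7-fold. TFF3, a trefoil peptide of mucus, stood at 9.33, 9.17 and 13.4 CPM against 38.9, 58.9 and 40.7 CPM and fell 4.34-fold (corrected 3.17-fold). AZGP1, a zinc-binding secreted glycoprotein, fell 1.75-fold (corrected 1.46-fold), and GATA3, a luminal transcription factor, 2.52-fold from 9.79 ± 2.1 CPM (corrected 2.12-fold). SPDEF, a factor of secretory cells, fell 2.07-fold, a call lost with the correction (log2 fold change -0.11, adjusted p = 0.215).

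ELF3, an epithelial ETS factor, was 1 of the 6 listed genes that rose: 653, 623 and 641 CPM in large spheroids against 376, 383 and 395 CPM, a 1.66-fold rise without overlap (corrected 2.14-fold). LCN2, a secreted protein that binds bacterial iron carriers, rose 1.58-fold (corrected 2.35-fold). MUC1, a membrane mucin, fell 1.36-fold (adjusted p = 0.0162). The log2 fold change of MUC1 lost its call without large spheroid replicate 3 (-0.38, adjusted p = 0.07), without small spheroid replicate 1 (-0.42, adjusted p = 0.0509) and with library totals (-0.34, adjusted p = 0.0654), and after the correction MUC1 was higher (0.84, adjusted p = 1.17e-07).

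Of 14 tested keratins, 2 rose, 8 fell and 4 did not pass, but with the correction 7 rose and 4 fell. KRT80 rose 1.84-fold, from 99.6 ± 3.5 to 183 ± 4.9 CPM (corrected 2.46-fold), and KRT4 fell 1.77-fold (corrected 1.37-fold). KRT7 fell 1.53-fold and was higher after the correction (log2 fold change 0.22, adjusted p = 0.00882). KRT18, a core keratin of simple epithelia, did not pass (912 ± 29 against 884 ± 21 CPM, adjusted p = 0.566), and was called higher with the correction (0.45) and with library totals (0.16).

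Cell junction genes rose more often than they fell: 12 of 19 rose, 6 fell and 1 did not pass, and corrected 10 rose and none fell. Over all genes 32.9% were called higher and 33.4% lower (corrected 26.7% and 25.4%). PKP2, a desmosomal plakophilin, stood at 93.1, 100.1 and 100.9 CPM in large spheroids and 37.1, 44.4 and 35.1 CPM in small ones. It rose 2.52-fold without overlap (log2 fold change 1.34 ± 0.10, adjusted p = 9.32e-09, corrected 2.26-fold). The desmosomal cadherin DSG2 rose 2.07-fold, the tight junction protein OCLN 2.53-fold and the adhesion molecule EPCAM 1.93-fold (corrected 1.51-fold, 1.68-fold and 1.86-fold). CLDN3, a claudin of tight junctions, fell 2.06-fold and was higher after the correction (log2 fold change 0.23, adjusted p = 0.0123). CDH1, E-cadherin, was near the detection limit: 55 counts over the large libraries and 3 over the small ones, a ratio of 15 (95% Clopper-Pearson interval 4.86 to 74.8, for counting error only).

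Of 25 tested matrix and integrin genes, 7 rose, 8 fell and 10 did not pass (corrected 7 and 7). LAMB3, a chain of laminin-332, rose 3.15-fold, from 4.9 ± 0.44 to 15.4 ± 0.15 CPM (corrected 4.54-fold). ITGB4, the integrin subunit that binds that laminin, fell 2.78-fold, and LAMA5, another laminin chain, fell 2.29-fold (corrected 1.62-fold and 1.22-fold). FN1, fibronectin, fell 1.3-fold (adjusted p = 0.0207). The log2 fold change of FN1 lost its call without large spheroid replicate 1 (-0.33, adjusted p = 0.0748), without small spheroid replicate 2 (-0.25, adjusted p = 0.135) and with library totals (-0.26, adjusted p = 0.0925), and with the correction FN1 was 1.81-fold lower.

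Sterol genes were lower in large spheroids, with 15 of 23 down, 3 up and 5 not passing (median -0.46), and corrected 17 down and 1 up. DHCR7, a reductase that finishes cholesterol, stood at 176, 167 and 164 CPM in large spheroids and at 358, 357 and 358 CPM in small ones. It fell 2.12-fold without overlap (log2 fold change -1.08 ± 0.07, adjusted p = 3.37e-09, corrected 1.49-fold). MVK, mevalonate kinase, fell 2.22-fold from 56.6 ± 3.4 to 25.4 ± 2.6 CPM (corrected 1.58-fold). HMGCS1, an early enzyme of the pathway, rose 1.49-fold, and the corrected value of 0.04 on the log2 scale was not called.

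Genes of fatty acid synthesis and storage were more often lower. Of 23 tested, 14 fell, 3 rose and 6 did not pass, and corrected 12 fell and 4 rose. FASN, fatty acid synthase, stood at 1612, 1433 and 1518 CPM in large spheroids and 3336, 3152 and 3428 CPM in small ones. It fell 2.17-fold (adjusted p = 1.93e-07), but 1.19-fold with the correction. SREBF1, the factor that drives FASN, fell 2-fold (corrected 1.2-fold), and ACLY, which makes cytosolic acetyl-CoA, fell 1.49-fold (corrected 1.33-fold). SCD, the stearoyl desaturase, stood at 808 ± 44 and 809 ± 32 CPM. HILPDA, which blocks lipid droplet breakdown, stood at 687, 804 and 853 CPM against 358, 406 and 395 CPM and rose 2.02-fold (corrected 2.23-fold). PLIN2, a coat protein of lipid droplets, rose 2.07-fold, and ACSL3, which activates fatty acids at droplets, rose 2.08-fold (corrected 2.13-fold and 1.32-fold). HILPDA, PLIN2 and ACSL3 were thus the listed genes that rose.

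Targets of the integrated stress response were more often higher. Of 26, 13 rose, 5 fell and 8 did not pass, and corrected 15 rose and 2 fell. This list shares VEGFA and STC2 with the hypoxia list. ASNS, asparagine synthetase, stood at 258, 261 and 259 CPM in large spheroids against 102.7, 89.8 and 108.6 CPM. Without overlap it rose 2.59-fold (log2 fold change 1.37 ± 0.11, adjusted p = 1.66e-08, corrected 2.4-fold). SLC7A11, which imports cystine, rose 3.43-fold and VLDLR, a lipoprotein receptor, 2.51-fold (corrected 1.96-fold and 1.84-fold). DDIT3 (CHOP) rose 1.83-fold, and TRIB3, a pseudokinase that restrains the response, rose 1.49-fold (corrected 2.05-fold and 2.35-fold). SLC7A5, a carrier of large amino acids, fell 1.5-fold and was at 0.06 on the log2 scale after the correction, not called.

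Other proteostasis lists moved both ways. Among 23 unfolded protein response genes 11 rose and 10 fell (corrected 8 and 9): DNAJB9, a chaperone of the endoplasmic reticulum, rose 2.24-fold, SDF2L1, a component of its chaperone complex, fell 2.52-fold and XBP1, a main factor of the response, fell 1.4-fold (corrected 1.57-fold up, 1.19-fold down and 1.87-fold down). Among 19 heat shock genes 8 rose and 5 fell (corrected 3 and 5). HSPB1, the small heat shock protein HSP27, stood at 867, 813 and 817 CPM against 2398, 3026 and 2484 CPM and fell 3.17-fold (corrected 1.63-fold). Of 30 proteasome genes 3 rose and 12 fell, and corrected 1 rose and 21 fell. PSMA7, a core subunit, fell 2.33-fold (corrected 1.66-fold), while PSMD14, a deubiquitinase of the lid, did not pass (adjusted p = 0.326) and was 2.08-fold lower with the correction. Of 56 cytosolic ribosomal protein genes 8 rose and 29 fell (corrected 11 and 21). RPS24 rose 1.57-fold, but pseudogene copies of such genes make their counts uncertain.

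Of 28 autophagy and lysosome genes, 6 rose, 15 fell and 7 did not pass (corrected 7 and 12). CTSA, protective protein cathepsin A, stood at 265, 253 and 262 CPM in large spheroids and at 728, 734 and 718 CPM in small ones. Replicates were tight and CTSA fell 2.8-fold (log2 fold change -1.48 ± 0.09, adjusted p = 7.73e-10, corrected 1.81-fold). CTSD, cathepsin D, fell 1.58-fold and was higher after the correction (log2 fold change 0.21, adjusted p = 0.0349). MAP1LC3B, the autophagosome protein LC3B, rose 1.83-fold (corrected 1.91-fold).

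Counts for metal and xenobiotic genes are to be read beside the 66.3% of all genes called. Of 6 tested metallothionein and zinc genes 3 rose and 1 fell (corrected 3 and 3). MT2A stood at 69.5, 58.7 and 65.4 CPM against 19.0, 16.1 and 18.1 CPM and rose 3.63-fold, and MT1X rose 5.04-fold (corrected 4.84-fold and 6.36-fold), with reads that near-identical relatives may share. Of 8 aryl hydrocarbon receptor targets 3 rose and 1 fell (corrected 4 and 1). CYP1A1 fell 2.95-fold, from 78.0 ± 10.7 to 26.4 ± 1.9 CPM, and CYP1B1 rose 2.51-fold, from 28.1 ± 4.2 to 70.6 ± 2.9 CPM (corrected 2.51-fold lower and 2.0-fold higher), so these related enzymes moved in opposite directions.

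Of 22 tested interferon-stimulated genes, 10 rose, 6 fell and 6 did not pass (corrected 11 and 5). PARP14, a mono-ADP-ribosyl transferase, rose 5.7-fold, from 1.51 ± 0.21 to 8.61 ± 0.52 CPM (corrected 4.15-fold). OAS3, a sensor of double-stranded RNA, fell 2.23-fold, and IFI6, a mitochondrial survival protein, fell 2.21-fold (corrected 1.87-fold and 1.52-fold). Among 15 BCL2 family genes 6 rose and 5 fell, and corrected 11 rose and 1 fell. MCL1, which protects from apoptosis, stood at 533, 527 and 503 CPM against 353, 355 and 355 CPM and rose 1.47-fold (corrected 1.23-fold). PMAIP1 (NOXA), which antagonises MCL1, rose 2.5-fold (corrected 1.64-fold). BBC3 (PUMA) fell 1.51-fold and was higher after the correction (log2 fold change 0.66, adjusted p = 1.47e-05). Of 16 YAP and TEAD targets 8 rose and 3 fell (corrected 7 and 5): CCN2, a matricellular growth factor, rose 3.31-fold and NT5E, the surface nucleotidase CD73, 3.54-fold (corrected 3.68-fold and 2.98-fold).

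The other lists are given by counts. Of 16 tested circadian clock genes 7 rose and 2 fell (corrected 9 and 2). Of 17 genes listed as oxygen-dependent histone demethylases 8 rose and 4 fell (corrected 5 and 1). That list also holds TET2, which acts on DNA and not on histones. Of 11 NF-kB targets 4 rose and 5 fell (corrected 7 and 2), and of 11 genes for MHC class I and peptide loading 1 rose and 6 fell (corrected 2 and 1). Of 23 actin cytoskeleton genes 6 rose and 9 fell (corrected 8 and 6), and of 22 NRF2 targets 6 rose and 8 fell (corrected 9 and 5). Of 16 replication-dependent histone genes 2 rose and 4 fell (corrected 3 and 2).

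Named by size of change among genes called the same way in both fits, the highest were POSTN, GJA1, TMSB4X, SLC2A3, PKIA, MAP3K20, ANXA3 and MACC1. MACC1, a regulator of the receptor gene MET, stood at 83.9, 100.1 and 98.0 CPM in large spheroids and 14.5, 16 and 19.3 CPM in small ones. It rose 5.67-fold (log2 fold change 2.5 ± 0.13, adjusted p = 3.15e-10, corrected 3.43-fold), with 56.9 ± 2.7 CPM in monolayer. ANXA3, a membrane-binding annexin, rose 5.92-fold from 7.71 ± 2.1 to 45.4 ± 2.3 CPM (corrected 4.07-fold). PKIA, an inhibitor of protein kinase A, rose 7.16-fold from 5.15 ± 1.9 to 36.7 ± 4.7 CPM, and MAP3K20, a kinase that senses stalled ribosomes, 6.86-fold from 1.71 ± 0.60 to 11.7 ± 0.8 CPM (corrected 4.67-fold and 4.5-fold).

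The lowest were RBP4, AKR1C1, WNT6, FBXO2, EBF4, C14orf132, GRAMD1B and OGDHL. RBP4, the retinol carrier of plasma, stood at 1.45, 1.85 and 2.47 CPM in large spheroids and at 46.2, 59.5 and 41.2 CPM in small ones. Large libraries were far below every small one, and RBP4 fell 25.4-fold (log2 fold change -4.66 ± 0.17, adjusted p = 1.84e-11, corrected 16.9-fold), with 13.6 ± 0.4 CPM in monolayer and 22.7 ± 1.4 in capsule. AKR1C1, an aldo-keto reductase that inactivates progesterone, fell 18.4-fold from 107.5 ± 9.6 to 5.82 ± 0.89 CPM (corrected 25.2-fold), though its near-identical relatives make its counts uncertain. WNT6, a Wnt ligand, fell 11.8-fold from 15.9 ± 2.1 CPM (corrected 4.79-fold). FBXO2, a ubiquitin ligase adaptor for glycoproteins, fell 10.8-fold, EBF4, a transcription factor, 10.4-fold, C14orf132 10.2-fold and GRAMD1B, a carrier of cholesterol between membranes, 9.98-fold. Corrected, these were 6.88-fold, 5.29-fold, 9.46-fold and 9.89-fold lower.

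Genes known from other tissues stood beside the largest rises. POSTN, the matrix protein periostin of mesenchymal cells, had 259, 436 and 223 counts in the large libraries and 0, 0 and 0 in the small ones, at least 250-fold higher against a floor of 3 counts over the format. In monolayer it stood at 21.9 ± 9.7 CPM. GJA1, the gap junction protein connexin 43, rose 26.6-fold to 11.7 ± 3.3 CPM, and TMSB4X, an actin-binding peptide, 10.4-fold to 35.5 ± 11.2 CPM. VIM, the mesenchymal filament vimentin, rose 2.46-fold, at 18.5, 27.8 and 13.9 CPM against 6.07, 7.88 and 10.8 CPM. Large spheroid replicate 2 was the highest and replicate 3 the lowest for each of POSTN, GJA1, TMSB4X and VIM.

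Marker lists for other cell types moved unevenly. All 6 melanocyte markers in the table rose and summed to 23.4 to 30.5 CPM of library totals in large spheroids against 5.98 to 7.07 in small ones. TYRP1, a melanin enzyme, had 97, 116 and 136 counts in large libraries and 1, 0 and 2 in small ones, a ratio of 95 (interval 32.2 to 463). The melanosome antigen MLANA had 53, 84 and 37 counts against 0, 2 and 2, and SOX10, a melanocyte and neural crest factor, 23, 38 and 15 against 0, 1 and 0. Cardiac markers differed within the format. MYH6, a cardiac myosin, had 295, 347 and 0 counts in large spheroids 1, 2 and 3 and MYH7 495, 402 and 0, so the 5 cardiac markers summed to 62.7, 49.5 and 3.93 CPM. Small spheroids ran from 3.92 to 5.65 CPM. Monolayer libraries, whose titles also carry UP, showed the same markers at higher counts: 1242, 1723 and 0 for MYH6 and 1509, 2228 and 2 for MYH7, again absent or nearly so in replicate 3. Their melanocyte sums ran from 56.5 to 121 CPM. The log2 fold change of MYH6 was called higher (adjusted p = 0.0147) although its libraries overlapped, a call lost under limma-voom (adjusted p = 0.645), without small spheroid replicate 1 (adjusted p = 0.0545) and without small spheroid replicate 2 (adjusted p = 0.0519).

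The 8 mesenchymal markers in the table summed to 52.3, 73.4 and 37.9 CPM in large spheroids and 46.9, 47.6 and 64.4 CPM in small ones, with overlap, since SPARC and COL1A1 were lower in large spheroids. SPARC had 44, 78 and 19 counts against 168, 180 and 339. The 4 endothelial markers summed to 14.5 to 18.3 CPM against 4.71 to 6.87, led by KDR, a receptor for VEGFA, with 166, 183 and 123 counts against 11, 18 and 25. KDR and 1 other of the 4, CDH5 (6.19, 4.64 and 4.45 CPM against 1.72, 2.66 and 2.36), were called. PECAM1, which defines endothelium, had 12, 21 and 17 counts against 8, 6 and 8. VWF, another defining marker, stood at 1.65, 1.38 and 1.91 CPM against 1.78, 1.82 and 2.15, so its libraries overlapped. The 3 basal markers in the table summed to 6.88 to 12 CPM against 2.58 to 3.56, and ACTA2, a smooth muscle actin, was the 1 of them called, with 119, 170 and 78 counts against 8, 3 and 4. OXTR, the oxytocin receptor, had 38, 56 and 24 counts against 43, 33 and 31, and KRT5 was under 1 CPM in each spheroid library. The part of RNA from other cells in the differences of POSTN, GJA1, TMSB4X, VIM, CDH1 and KDR was not tested. Nor was it tested for any other gene, members of the pathway lists included. Without large spheroid replicate 3, which lacked the cardiac myosins, 9520 genes were called. That fit keeps replicates 1 and 2, which held the cardiac reads, so its count cannot show what RNA from other cells adds.

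**Figure D5:**
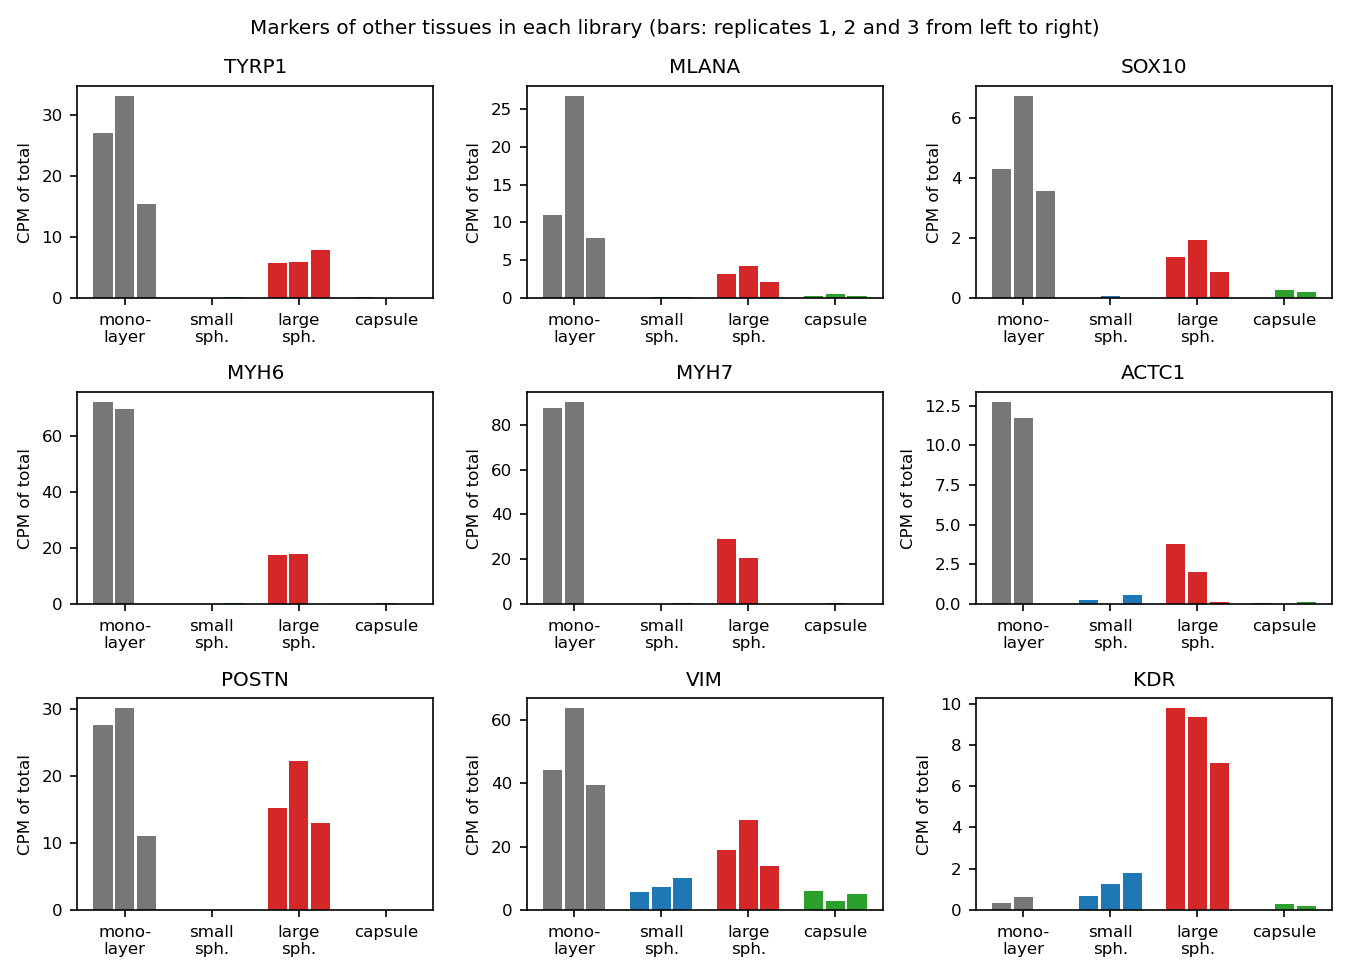
CPM of library totals for 9 markers of melanocytes, cardiac muscle, mesenchyme and endothelium, 1 bar per library (replicates 1, 2 and 3 from left to right), on linear axes from 0. TYRP1, POSTN and KDR are read in all 3 large spheroid libraries, and MYH6 and MYH7 in replicates 1 and 2 but not 3.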

How the data were processed

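RNA sequencing counts were taken for 12 libraries of AU565 cells, 3 in each of 4 formats, and groups come from the condition label. Library making by TRIzol and TruSeq is per the labels' protocols. Values are raw read counts for each Entrez gene ID, whole numbers as deposited by the authors in a single table. Per the submitters' processing notes the build was hg38 and the tools included featureCounts and limma. No source used here gives versions, annotation or strand setting, so reads of overlapping, antisense and near-identical genes could be split or shared. The table held 16020 rows, of which 164 without a symbol took 0.0705% of counts.

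The fits used edgeR 4.0.16 under R 4.3.3: filterByExpr (minimum count 10), TMM, 1 fit of all 12 libraries with a coefficient per format, and the quasi-likelihood F test with Benjamini-Hochberg adjustment over 15175 genes. The second fit added offsets per library from natural splines (5 degrees of freedom) on GC content and log2 length of the longest GENCODE transcript, which 15393 rows had. Positions and promoters are from RefSeq on GRCh38.p14, which matched 15851 rows (98.9%). Log2 CPM for components used a prior count of 2. Totals ran from 13971346 to 24729250 counts, and bounds against 3 counts and 95% intervals cover counting error only. Replicate pairs of each size differed by a chi-square per gene of 2.8 to 12.6, so each library counted as 1 sample. Both fits were tested on simulated data in which few genes changed and no trend with GC content was present. That test does not cover the GC trend or the large share of genes called here.

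Members and lists were chosen with earlier results of these data known. Genes were named as the 8 most raised and 8 most lowered protein-coding genes called the same way in both fits, with a mean of at least 10 CPM in the higher format and no overlap, the 3 members of each list with the smallest adjusted p, and VEGFA, CA9, MKI67, CDKN1A, ERBB2, EGFR, ERBB3, GRB7, SCGB2A2, KRT18, CDH1, VIM, FN1, FASN, HMGCS1 and TXNIP. Some of these are not reported here, and every other gene named was chosen after its values were seen. The alternatives were other scalings, tests, filters and samples, a replicate block, and leaving out each library.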

Additional observations from a re-analysis of the deposited data

How the results depend on the processing

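Of 16 alternatives, those without the GC and length correction kept the direction of each of the 147 genes called among the 156 tried. Among the genes called without it, the correction reversed 10. Their log2 values became 0.36 for NOL3, -0.087 for PLOD2, -0.039 for RRM1, 0.071 for GRB7 and 0.84 for MUC1. They became 0.22 for KRT7, 0.23 for CLDN3, 0.065 for SLC7A5, 0.21 for CTSD and 0.66 for BBC3. The number of genes called ranged from 8770 with a mean of at least 50 counts to 10467 in the 6 spheroid libraries alone, with 10051 by DESeq2 and 10009 by limma-voom, against 7631 with the correction. Genes called at least 2-fold numbered 1553 with the correction (688 higher, 865 lower) and 1920 with a mean of at least 50 counts (811 higher, 1109 lower), where fewer genes were tested. Leaving out 1 library gave 9296 to 9637 calls (4517 to 4770 higher, 4647 to 4867 lower) and 2899 to 3226 at least 2-fold (1218 to 1352 higher, 1602 to 1881 lower), and the mitochondrial share differed by 1.05 to 1.58 percentage points. Same-numbered libraries deviated with correlations of 0.152, -0.111 and -0.082, and not every library correlated best with its own number. Such values from 3 libraries per format cannot show whether a number marks a shared batch. MYH6 and MYH7 were absent or nearly so in replicate 3 of both large spheroid and monolayer libraries, and present in replicates 1 and 2. A replicate block called 9873 genes, 3019 at least 2-fold, and changed no call among the 156 genes. The replicate block with the correction called 7571 genes, 1553 at least 2-fold (689 higher, 864 lower), with the reversals above at 0.36, -0.087, -0.039, 0.071, 0.84, 0.22, 0.23, 0.063, 0.21 and 0.66, and CA9 was then called higher at 0.40. Why these values moved was not tested. Depth limits genes such as CDH1, with 3 counts over the small spheroid libraries.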
